A study of Mus musculus with 8 samples.

Results

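RNA-seq values of E14 wild-type mouse embryonic stem cells (ESCs) at day 0 and of the same line at day 5 of directed differentiation toward spinal motor neurons (SMNs) were compared across 12520 genes, of 36808 genes in the table. These were the protein-coding genes, of 22304 in the table, that reached 1 FPKM in either library and were above 0 in both. FPKM scales the fragments assigned to a gene by transcript length and by library size, so levels can be set side by side between genes. E14 is a wild-type ESC line of 129/Ola background. Day 0 cells were grown on irradiated mouse embryonic fibroblasts with LIF and serum, and were plated briefly before collection to remove the fibroblasts. Day 5 cells had been differentiated in culture by removal of LIF and addition of retinoic acid and a Hedgehog agonist. Each time point had 1 library, as did the other 6 conditions of the series. The day 0 library of a further wild-type ESC line, CJ7 (129/S background), served as an alternative reference. List medians were also computed between the same time points of the PRC2 mutant lines Suz12delta (C57/BL6) and Eednull (BALB/cR1). No difference below has a replicate check, and no p-value or error can be given. In bulk RNA, fewer cells of a type and less RNA per cell cannot be told apart.

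ESCs are held in a self-renewing state by a network of transcription factors around OCT4, SOX2 and NANOG. In the embryo, retinoic acid from the somites gives neural cells a hindbrain and spinal identity through the Hox genes, and Sonic hedgehog from the notochord and floor plate sets ventral identity. Motor neuron progenitors form in a ventral domain marked by OLIG2, leave the cell cycle under proneural factors such as NEUROG2, and then express the LIM homeodomain factors ISL1 and LHX3 together with MNX1 (HB9).

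The promoters of genes that retinoic acid is known to act on directly, and of a central pluripotency gene, are shown here because both groups changed by large factors. *Rarb* encodes a retinoic acid receptor. In NCBI build 37 its span is 17263356 to 17651381 of chromosome 14, on the minus strand. *Cyp26a1* encodes an enzyme that degrades retinoic acid and lies on chromosome 19 from 37772298 to 37776018 on the plus strand. Their promoters hold a DR5 element, the direct repeat with a spacer of 5 bases that retinoic acid receptors are known to bind, shown in capitals. *Nanog*, which encodes a pluripotency homeodomain factor on chromosome 6 from 122657507 to 122664651, has a composite OCT-SOX element in capitals. Sequences are from RefSeq on GRCm38.p6 and run from 250 bases before to 50 bases after the annotated start, 5′ to 3′ on the strand of the gene, at chr14:16575427-16575726 on the minus strand, chr19:37697558-37697857 on the plus strand and chr6:122707239-122707538 on the plus strand.
Rarb: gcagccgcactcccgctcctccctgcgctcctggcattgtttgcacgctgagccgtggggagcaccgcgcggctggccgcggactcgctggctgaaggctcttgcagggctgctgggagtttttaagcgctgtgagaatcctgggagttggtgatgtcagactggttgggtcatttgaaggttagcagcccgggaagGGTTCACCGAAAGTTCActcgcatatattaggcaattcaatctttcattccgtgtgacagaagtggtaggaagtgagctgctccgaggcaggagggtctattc
Cyp26a1: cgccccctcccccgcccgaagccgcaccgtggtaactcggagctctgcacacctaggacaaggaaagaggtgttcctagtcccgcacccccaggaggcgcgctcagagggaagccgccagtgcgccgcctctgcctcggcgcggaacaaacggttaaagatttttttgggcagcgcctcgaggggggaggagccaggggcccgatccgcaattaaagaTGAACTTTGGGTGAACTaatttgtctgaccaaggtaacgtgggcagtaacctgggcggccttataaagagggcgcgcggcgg
Nanog: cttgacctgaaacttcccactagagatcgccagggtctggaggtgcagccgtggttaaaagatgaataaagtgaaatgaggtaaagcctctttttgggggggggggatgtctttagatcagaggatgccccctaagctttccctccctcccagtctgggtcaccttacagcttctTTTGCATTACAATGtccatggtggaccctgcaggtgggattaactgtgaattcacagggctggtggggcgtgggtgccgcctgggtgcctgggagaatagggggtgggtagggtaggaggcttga
Both strands of 32851 promoters, of 27025 genes, were searched with these elements, which were chosen after the expression values had been seen. The DR5 element was matched in 31 genes (0.115% of those searched) and the composite OCT-SOX element in 4 genes (0.0148%). Of the 27 retinoic acid pathway genes that had a promoter sequence, 2 held the DR5 element, *Rarb* and *Cyp26a1*. A match of letters is a description and not evidence of binding.

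Over the 12520 genes the median log2 ratio of day 5 to day 0, computed from FPKM plus a pseudocount of 0.1, was -0.10, with quartiles of -0.77 and 0.59. At least 2-fold higher at day 5 were 2126 genes (17%), and 2468 genes (19.7%) were at least 2-fold lower. At least 4-fold higher were 909 genes (7.26%) and at least 4-fold lower were 1233 genes (9.85%). The other 7926 genes lay between the 2-fold limits. "Rose" and "fell" are used below for a change of at least 2-fold in this sense. The balance of rises and falls depended on the scaling of the libraries. Of the genes past 2-fold, 46.3% were higher with values as deposited, and 66.5% were higher when the libraries were scaled to the same summed FPKM without the 10 highest genes of each, which moved the median of all genes by 0.48. Scaling to the same 75th percentile moved it by 0.12, and CJ7 as the ESC library moved it by 0.21.

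**Figure D1:**
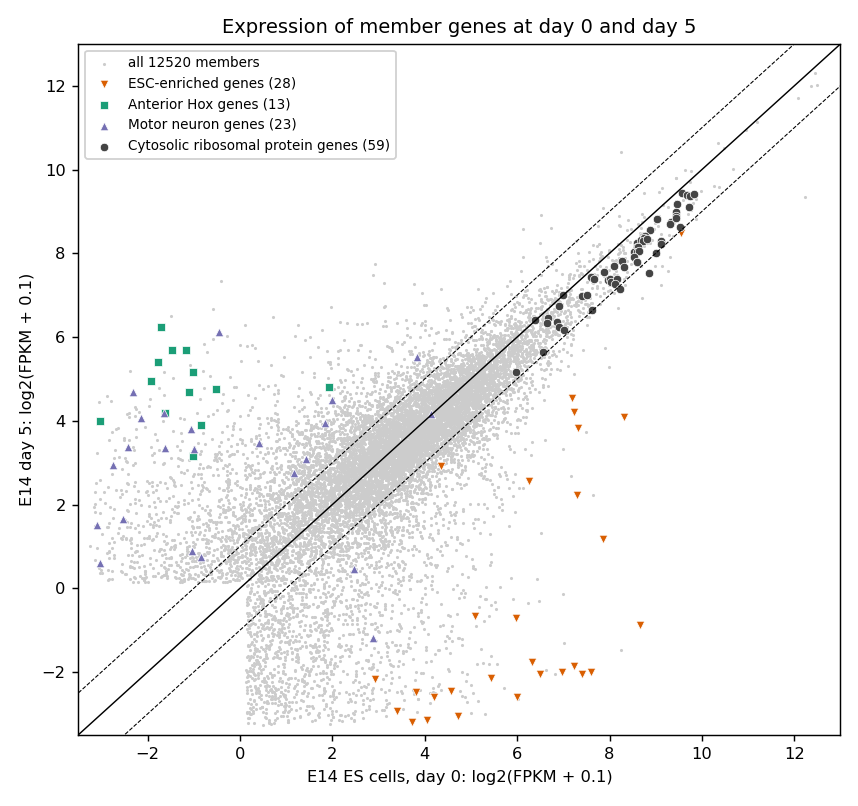
Each point is 1 of 12520 genes, with log2(FPKM + 0.1) in E14 ESCs at day 0 on the horizontal axis and at day 5 on the vertical axis; the solid line marks equal values and the dashed lines 2-fold differences. All 28 ESC-enriched genes lie on or below the lower dashed line, the 13 Hox genes of paralogue groups 1 to 5 above the upper one, and 57 of 59 ribosomal protein genes between the lines.

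The rule leaves out 347 protein-coding genes that reached 1 FPKM in 1 library and were listed at 0 in the other, 125 of them at 0 at day 0 and 222 at 0 at day 5. A value of 0 in this table is not taken as absence. *Rpl13*, *Cox4i1* and *Tubb3*, which encode a ribosomal protein, a respiratory chain subunit and a neuronal tubulin, were listed at 0 in all 8 libraries. Genes listed at 0 are therefore given as values with no ratio. A further 5019 protein-coding genes were below 1 FPKM in both libraries, and 4418 were listed at 0 in both. At the limit of the rule, *S1pr4* was just inside with 1.0 FPKM at day 0, and *Dcdc2b* was just outside with 0.999 FPKM.

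The 15 largest rises were led by Hox genes and regulators of neural identity. *Hoxb8* went from 0.256 to 91.2 FPKM, *Hoxd3* from 0.204 to 75.3 FPKM, and *Nr2f1*, which encodes the orphan nuclear receptor COUP-TFI, from 0.650 to 163 FPKM. Their log2 ratios were 8.0, 7.95 and 7.77. Besides 8 Hox genes in all, the group held the motor neuron progenitor factor *Olig2*, the LIM homeobox gene *Lhx3*, the neuronal basic helix-loop-helix genes *Nhlh2* and *Neurod4*, the neuronal RNA-binding protein gene *Elavl4*, and *Tmem132e*, which went from 0.0927 to 36.3 FPKM. The 15 largest falls were mostly genes known for expression in ESCs. *Dppa5a* (developmental pluripotency associated) went from 407 to 0.447 FPKM, and its near-identical paralogue *Dppa5b* from 302 to 0.259 FPKM, so that reads may have been split between them. *Lefty1*, an inhibitor of *Nodal* signaling, went from 193 to 0.152 FPKM, and *Tdh*, the threonine dehydrogenase on which mouse ESCs are known to rely, from 170 to 0.140 FPKM. The log2 ratios of *Lefty1* and *Tdh* were -9.58 and -9.47. *Lefty2*, *Tdgf1*, *Zfp42*, *Utf1*, *Esrrb*, *L1td1*, *Pou5f1*, *Triml2*, *Klf2*, *Fbxo15* and *Gm10112* made up the rest, with log2 ratios of -8.08 or lower.

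Of the 10 most abundant genes at day 0, 9 stayed within the 2-fold limits. *Eef1a1*, a translation elongation factor gene, was at 5741 FPKM at day 0 and 4124 FPKM at day 5. The mitochondrially encoded *mt-Co3* was at 5568 and 5040 FPKM. *Lars2* was the exception among the 10 highest of day 0, at 4822 FPKM at day 0 and 647 FPKM at day 5, but it was at 609 FPKM in CJ7 ESCs. Among the 10 highest of day 5, *Tuba1a*, an alpha tubulin gene of postmitotic neurons, was the only one that rose, from 303 to 1378 FPKM.

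Genes of the ESC state fell together. Of 24 core and naive pluripotency factors, 21 were among the genes compared, 17 fell, 0 rose, and the median log2 ratio was -3.17 (-0.10 over all genes). Several naive factors fell by large factors. *Esrrb*, an orphan nuclear receptor gene, went from 99.3 to 0.157 FPKM, *Zfp42*, which encodes REX1, from 113 to 0.143 FPKM, and *Tcfcp2l1* from 30.0 to 0.0531 FPKM. *Nanog* was at 155 FPKM and *Klf4* at 72.5 FPKM at day 0, and both were listed at 0 at day 5. *Sox2*, which neural progenitors also express, fell by a smaller factor. It went from 67.1 to 20.7 FPKM, a log2 ratio of -1.69, and *Sall4* from 48.0 to 5.25 FPKM. *Myc* and *Zfx* stayed within the 2-fold limits. CJ7 ESCs had 147 FPKM for *Nanog* and 67.0 FPKM for *Esrrb*.

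All 28 ESC-enriched genes that could be compared fell, with a median log2 ratio of -6.74, which became -4.51 with a pseudocount of 1. They included *Utf1*, a chromatin factor gene, which went from 64.2 to 0.0646 FPKM, the growth factor gene *Fgf4*, from 13.1 to 0.00968 FPKM, and *Gdf3*, from 26.2 to 0.0209 FPKM. *Spp1* (osteopontin) went from 233 to 2.15 FPKM. *Trim28*, which encodes a corepressor used in many cell types, fell least, from 746 to 360 FPKM. *Dppa3*, *Eras* and *Aire* were listed at 0 at day 5. The median day 5 level of the 28 was 0.163 FPKM. Most therefore reached the minimum only at day 0, and their lower values follow from the rule. Without a minimum, 28 genes could be compared, with the same median log2 ratio of -6.74.

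Genes of germ cells fell as well, with 16 of 20 lower and 0 higher. The median log2 ratio was -3.57, or -2.12 with a pseudocount of 1. The median day 5 level of the 20 was 0.203 FPKM. Most therefore reached the minimum only at day 0, and their lower values follow from the rule. Without a minimum, 21 genes could be compared, with a median log2 ratio of -3.53. *Sycp3*, a component of the synaptonemal complex, went from 29.7 to 0.115 FPKM, *Tdrd12*, a piRNA pathway gene, from 35.1 to 0.187 FPKM, and *Ddx4* (VASA) from 9.0 to 0.250 FPKM. *Sycp3* was at 3.98 FPKM in CJ7 ESCs. *Dazl*, *Hormad1*, *Taf7l* and *Prdm1* were listed at 0 at day 5, and *Rec8*, a meiotic cohesin gene, was at 8.80 and 14.7 FPKM.

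**Figure D2:**
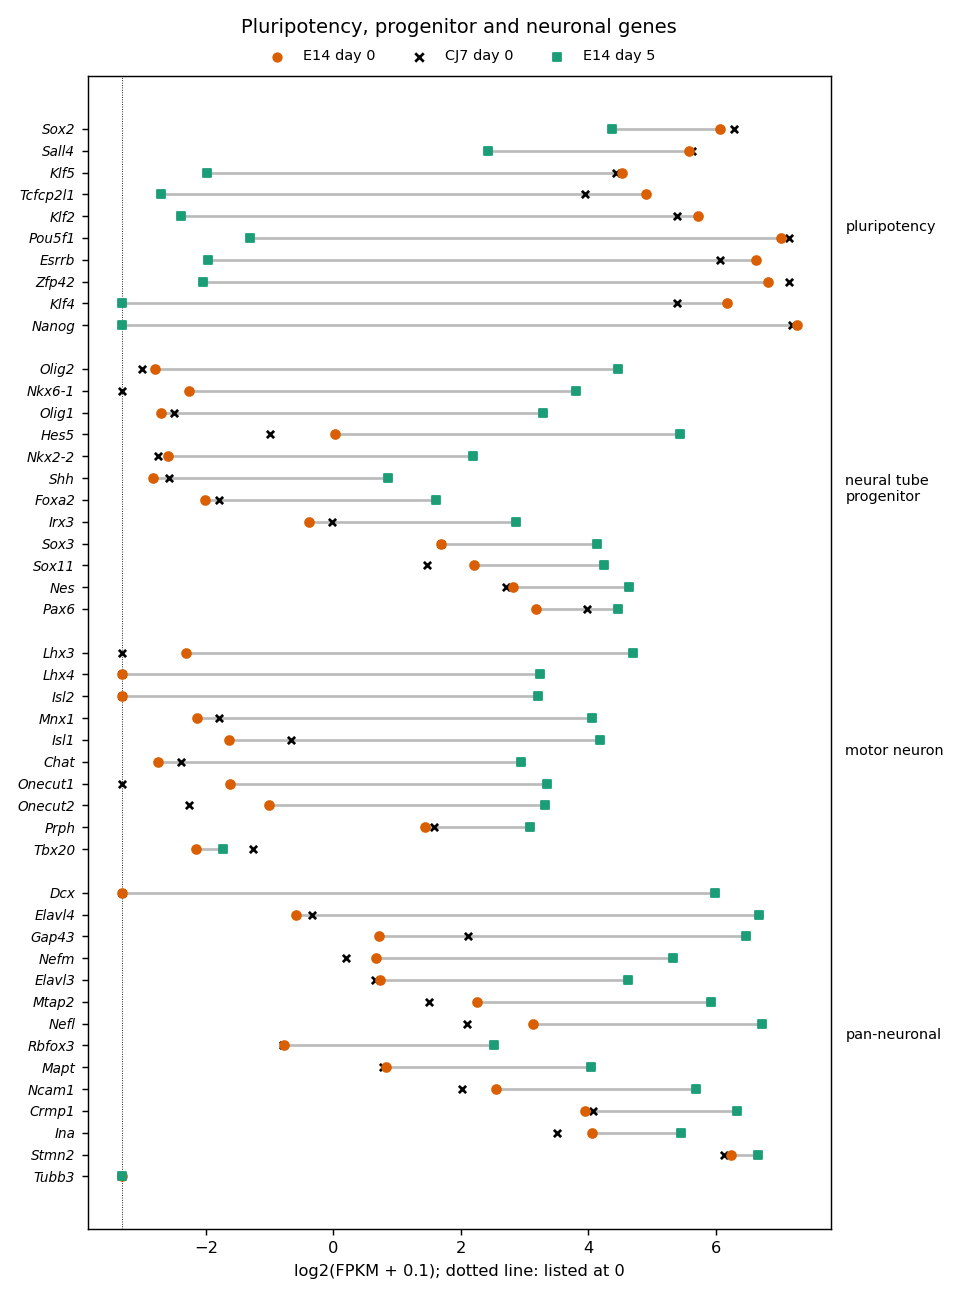
Values of the leading pluripotency, neural tube progenitor, motor neuron and pan-neuronal genes as log2(FPKM + 0.1) in E14 ESCs (circles), CJ7 ESCs (crosses) and E14 cells at day 5 (squares), with a grey line joining the E14 libraries. The 10 pluripotency genes lie to the left at day 5, *Tubb3* was listed at 0 in each library, and most neural genes lie to the right at day 5, *Olig2* for example at 22.1 FPKM against 0.0436 FPKM.

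Genes of the other early lineages were mostly low at day 5. Of 10 epiblast genes compared, 8 fell. The de novo DNA methyltransferase gene *Dnmt3b* went from 50.9 to 3.58 FPKM, and *Otx2*, a homeobox gene of the epiblast and forebrain, was at 15.8 FPKM at day 0 and listed at 0 at day 5. *Sox4*, also a gene of young neurons, was the 1 that rose, from 9.61 to 52.9 FPKM. Most primitive streak and mesoderm genes, 17 of 24, were below 1 FPKM in both libraries, and the 4 that could be compared (*T*, *Eomes*, *Snai1* and *Bmp4*) reached the minimum only at day 0, so that their lower values at day 5 follow from the rule. Without a minimum, 14 genes could be compared, with a median log2 ratio of -1.88. The mesoderm gene *T* (brachyury) was at 2.60 FPKM at day 0 and 0.104 FPKM at day 5. The trophoblast genes fell in 7 of 9 cases, among them *Tcfap2c* (AP2-gamma) from 17.3 to 0.0492 FPKM and the simple epithelial keratin gene *Krt8* from 9.78 to 0.845 FPKM. The median log2 ratios of the epiblast, streak and trophoblast lists, -3.62, -3.63 and -2.90, became -2.14, -1.66 and -1.78 with a pseudocount of 1. The median day 5 levels of the epiblast and trophoblast genes compared were 0.419 and 0.490 FPKM. Most of these also reached the minimum only at day 0, so that their lower values follow from the rule. Without a minimum, 11 and 13 genes could be compared, with medians of -3.44 and -2.59.

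Endoderm genes went both ways, with 4 of 11 higher and 5 lower. *Apoe* fell from 201 to 4.55 FPKM and the laminin gene *Lamb1* from 32.2 to 1.52 FPKM. *Cxcr4*, a chemokine receptor gene also known in neurons, rose from 0.972 to 78.3 FPKM, and *Foxa2*, also a gene of the floor plate, from 0.147 to 2.96 FPKM. The definitive endoderm gene *Sox17* and the primitive endoderm genes *Gata4* and *Gata6* were below 1 FPKM in both libraries.

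Genes of the neural tube rose together. Of 25 progenitor genes compared, 22 rose, 0 fell and the median log2 ratio was 3.44, or 2.26 with a pseudocount of 1. The median day 0 level of the 25 was 0.649 FPKM, so that most entered the comparison only through their day 5 value. Without a minimum, 30 genes could be compared, with a median log2 ratio of 2.79. *Olig2*, which marks the motor neuron progenitor domain and lies on chromosome 16 from 91225795 to 91228922, went from 0.0436 to 22.1 FPKM. *Nkx6-1*, a homeobox gene of the ventral neural tube, went from 0.109 to 13.9 FPKM, and *Irx3*, of the intermediate neural tube, from 0.670 to 7.19 FPKM. Genes of the domains ventral to motor neuron progenitors reached lower levels, with *Nkx2-2* (V3 interneuron progenitors) at 4.46 FPKM and *Shh* (floor plate) at 1.71 FPKM. *Pax6*, present at 8.99 FPKM in E14 and 15.7 FPKM in CJ7 ESCs, rose to 21.9 FPKM. The dorsal genes *Pax3*, *Pax7*, *Msx1*, *Msx2* and *Gsx2* and the p0 domain genes *Dbx1* and *Dbx2* were below 1 FPKM in both libraries. The pan-progenitor genes *Fabp7*, *Sox3* and *Nes* rose, *Fabp7* by the largest factor, from 0.196 to 27.3 FPKM, and *Vim*, a filament gene shared with many cell types, was at 217 and 399 FPKM.

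Motor neuron genes rose in 20 of 23 cases, with a median log2 ratio of 3.64. *Lhx3* (chromosome 2, 26055732 to 26063769) went from 0.101 to 25.8 FPKM, *Isl1* (chromosome 13, 117088478 to 117099896) from 0.220 to 18.1 FPKM, and *Mnx1* (chromosome 5, 29799578 to 29805059) from 0.127 to 16.7 FPKM. *Isl2* was listed at 0 at day 0 and at 9.17 FPKM at day 5, and *Lhx4* at 0 and 9.41 FPKM. Of the genes of the mature cholinergic neuron, *Chat*, the acetylcholine-synthesizing enzyme, reached 7.61 FPKM from 0.0490 FPKM, while the choline transporter gene *Slc5a7* was at 0.312 FPKM. *Tbx20*, a visceral motor neuron gene of the hindbrain, was at 0.200 FPKM. *Cntn2* (TAG-1), an axonal adhesion gene of young motor neurons, rose from 0.632 to 69.7 FPKM. The ETS genes *Etv1* and *Etv4*, which mark motor pools but are also FGF targets, fell, *Etv4* from 7.27 to 0.340 FPKM. The list's median became 1.91 with a pseudocount of 1 and 2.85 with CJ7 as the ESC library. The median day 0 level of the 23 genes was 0.399 FPKM, so that most of these also entered only through their day 5 value. Without a minimum, 27 genes could be compared, with a median log2 ratio of 2.49.

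Factors of spinal interneurons were few. Of 29, 22 were below 1 FPKM in both libraries, including *En1* (V1), *Sim1* (V3) and *Lbx1* (dorsal), the last at 0.153 FPKM at day 5. Among the 6 compared, *Lhx1* rose from 0.0133 to 3.96 FPKM and *Prdm8* from 0.108 to 19.9 FPKM. Without a minimum level, 20 genes could be compared, and the list's median log2 ratio went from 3.57 to -0.16. It was 1.72 with a pseudocount of 1 and also with CJ7.

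Proneural genes rose by large factors and Notch genes divided. *Neurod4* went from 0.0349 to 24.1 FPKM and *Neurog1* from 0.0754 to 11.9 FPKM. *Neurog2*, *Myt1* and *St18* were listed at 0 at day 0, and at 20.7, 39.2 and 15.5 FPKM at day 5. Among Notch pathway genes, the ligand gene *Dll3* rose from 1.81 to 33.4 FPKM, the receptor gene *Notch1* from 12.8 to 48.0 FPKM, and the modifier gene *Mfng* from 2.42 to 36.0 FPKM. The neural target gene *Hes5* rose from 0.919 to 43.2 FPKM, whereas *Hes1* fell from 47.0 to 12.0 FPKM and the ligand gene *Jag1* from 6.76 to 1.72 FPKM. Over the list, 18 of 34 rose and 3 fell. The median log2 ratio of 1.48 became 0.93 with a minimum of 5 FPKM and 2.61 with CJ7, in which the ligand gene *Dll1* was at 4.33 FPKM against 18.8 FPKM in E14 ESCs and 28.3 FPKM at day 5.

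Of 34 pan-neuronal genes compared, 28 rose and 2 fell, with a median log2 ratio of 3.32. The neurofilament genes *Nefm* and *Nefl* went from 1.48 to 40.1 FPKM and from 8.69 to 106 FPKM, *Gap43*, a growth cone gene, from 1.55 to 88.6 FPKM, and *Dpysl3*, a microtubule regulator of the growth cone, from 7.30 to 178 FPKM. *Elavl4* (HuD) went from 0.568 to 102 FPKM. *Dcx* (doublecortin), a microtubule protein gene of migrating and young neurons, had no value above 0 at day 0 and 63.7 FPKM at day 5. *Stmn2* was already at 75.7 FPKM in ESCs and at 101 FPKM at day 5. *Thy1*, a surface antigen gene of mature neurons that fibroblasts also express, fell from 8.72 to 0.0797 FPKM, and the heavy neurofilament gene *Nefh* from 1.95 to 0.534 FPKM.

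The cytoskeleton genes showed rises in isotypes known from neurons. *Tubb2b* went from 91.6 to 486 FPKM and *Tubb2a* from 70.1 to 382 FPKM, while *Tubb5*, present in most dividing cells, was at 338 and 442 FPKM. The kinesin gene *Kif5c* rose from 4.26 to 50.5 FPKM, and its ubiquitous paralogue *Kif5b* was at 54.1 and 40.6 FPKM. *Tuba4a* was the 1 of 28 that fell, from 30.7 to 1.11 FPKM, and 18 rose.

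Synaptic and channel genes were at lower levels. Of 27 synaptic genes 18 rose and 2 fell, and of 15 channel genes 8 rose and 2 fell. Day 5 levels were 17.5 FPKM for the vesicle protein gene *Syp*, 9.14 FPKM for the SNARE gene *Snap25* and 3.79 FPKM for the calcium sensor gene *Syt1*, from 1.03, 0.612 and 0.279 FPKM. The transmitter genes of glutamatergic and GABAergic neurons, *Slc17a6*, *Slc32a1* and *Gad2*, were below 1 FPKM in both libraries, and *Gad1* fell from 7.13 to 0.171 FPKM, with 0.558 FPKM in CJ7. The glycine receptor gene *Glra1* rose from 0.466 to 15.4 FPKM. Among channels the potassium channel gene *Kcnh2* rose from 2.95 to 33.2 FPKM, and the calcium channel subunit gene *Cacna2d1* was listed at 0 at day 0 and at 22.7 FPKM at day 5. The synaptic median of 2.28 became 1.28 with a pseudocount of 1, and the channel median of 1.27 became 2.12 under scaling by sum.

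Axon guidance genes rose in 25 of 38 cases and fell in 3, with a median log2 ratio of 1.74. Among receptor genes, *Robo2* went from 0.156 to 20.4 FPKM, *Unc5a* from 0.511 to 49.8 FPKM and *Dcc* from 0.0416 to 3.75 FPKM. *Slit2* and *Slit1*, ligands of the Robo receptors, reached 25.6 and 15.8 FPKM from 2.76 and 0.216 FPKM. *Epha4*, a receptor of limb-innervating motor axons, rose from 5.41 to 12.8 FPKM, whereas the floor plate ligand gene *Ntn1* was at 19.3 and 23.5 FPKM. *Sema3e* fell from 7.20 to 0.0845 FPKM.

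Retinoic acid pathway genes rose in 21 of 32 cases and fell in 2, with a median log2 ratio of 2.47. Among the receptors, *Rarb*, whose promoter with a DR5 element is printed above, went from 0.445 to 22.7 FPKM, *Rara* was at 17.7 and 26.1 FPKM, and *Rarg* fell from 28.1 to 1.18 FPKM. The degrading enzyme genes rose, with *Cyp26b1* at 61.8 FPKM from 0.564 FPKM and *Cyp26a1*, the other gene with a DR5 element, at 9.84 FPKM from 0.305 FPKM. The binding protein gene *Crabp2* rose from 8.64 to 104 FPKM. The retinol uptake receptor gene *Stra6* was listed at 0 at day 0 and at 8.62 FPKM at day 5. The synthesizing enzyme gene *Aldh1a2*, also a gene of limb-level motor neurons, was at 0.983 and 0.935 FPKM. *Meis1*, which encodes a cofactor of Hox proteins, went from 0.723 to 65.2 FPKM. *Stra8*, a germ cell gene known to respond to retinoic acid, fell from 6.86 to 2.17 FPKM. Over the 5 genes compared here that held a DR5 element, 3 rose and 1 fell, against 17% and 19.7% over all genes. *Rarb* and *Cyp26a1* are among the 3, and the element was chosen with their rises known. The count is therefore no evidence about genes with this element.

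Hox genes were high at day 5 from the start of the clusters up to a limit. Of 39 Hox genes, 19 were at 1 FPKM or more at day 5. All 12 genes of paralogue groups 2 to 5 were above 1 FPKM, between 8.78 FPKM (*Hoxa2*) and 75.3 FPKM (*Hoxd3*), with a median of 29.0 FPKM. *Hoxb1* and *Hoxd1* were below 1 FPKM in both libraries. In groups 6 to 8, 5 of 8 genes were at 1 FPKM or more, and they lay in the Hoxa and Hoxb clusters, whereas *Hoxc6*, *Hoxc8* and *Hoxd8* were at 0.872, 0.0138 and 0.817 FPKM. Of the 16 genes of groups 9 to 13 only *Hoxb9* exceeded 1 FPKM, at 3.32 FPKM. All 6 genes compared in groups 6 to 13 reached 1 FPKM only at day 5, so that their rise follows from the rule. Without a minimum, 14 genes of these groups could be compared, and the median log2 ratio went from 5.31 to 1.48. Summed over a cluster, Hoxb reached 295 FPKM, Hoxa 120 FPKM, Hoxd 119 FPKM and Hoxc 47.8 FPKM. Groups 2 to 5 are known from the hindbrain and cervical cord, and *Hoxc8* and group 9 and 10 genes from brachial to lumbar levels. Of the 12 telencephalon and midbrain markers, 1 could be compared, *En2*, which fell from 1.08 to 0.152 FPKM. *Otx2* was listed at 0 at day 5, as given above, and *Th*, the rate-limiting enzyme of dopamine synthesis, was listed at 0 at day 0 and at 15.9 FPKM at day 5.

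**Figure D3:**
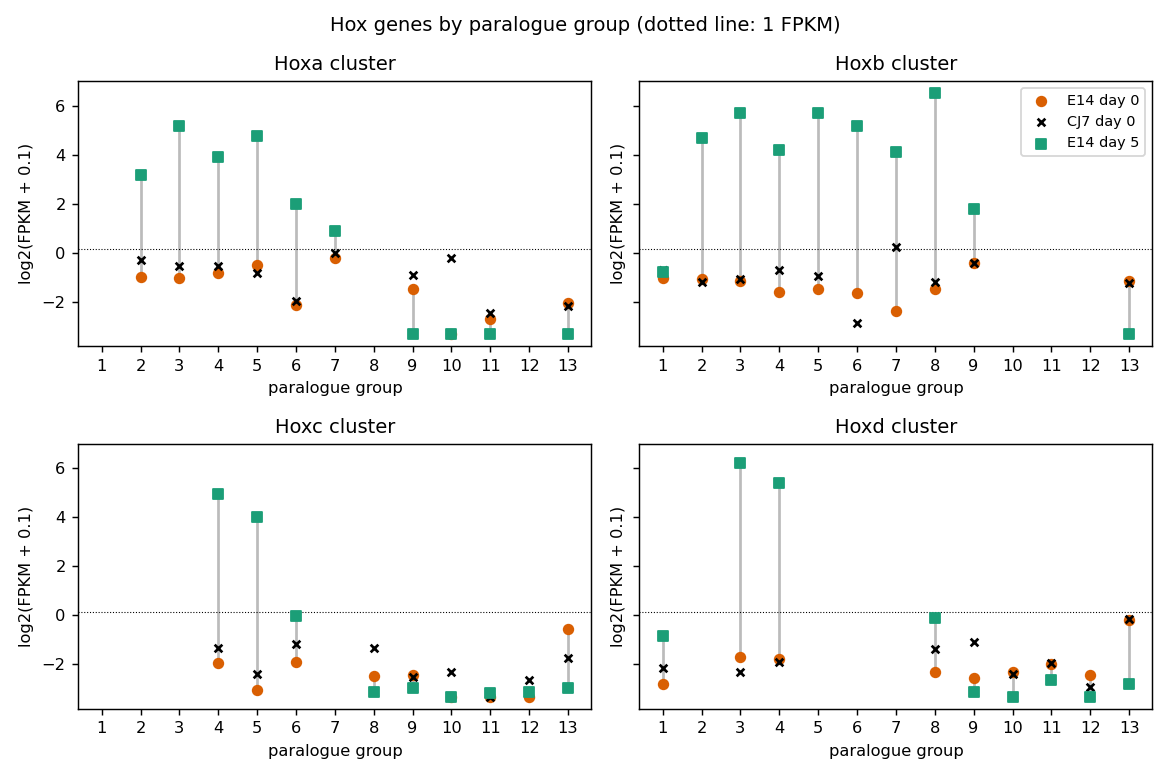
Each panel plots log2(FPKM + 0.1) of genes of 1 Hox cluster against paralogue group, with E14 ESCs as circles, CJ7 ESCs as crosses and E14 day 5 cells as squares. Day 5 values are high from group 2 to group 5 in each cluster that has these genes, stay high to group 8 in the Hoxb cluster, where *Hoxb8* is at 91.2 FPKM, and are below 1 FPKM from group 10 on.

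Of the Hedgehog pathway genes, 10 of 22 rose and 1 fell, with a median log2 ratio of 0.94, or 1.72 with CJ7. The receptor and target gene *Ptch1* was at 36.9 FPKM in E14 ESCs, 17.0 FPKM in CJ7 ESCs and 68.9 FPKM at day 5. The feedback gene *Hhip* rose from 1.23 to 4.78 FPKM. *Gli1*, a transcription factor and target gene, was at 11.3 and 10.6 FPKM, and *Gli2* fell from 15.4 to 2.69 FPKM. *Disp2*, a member of the dispatched family, rose from 0.0814 to 8.09 FPKM.

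FGF pathway genes fell in 14 of 23 cases and rose in 4. The ligand gene *Fgf4* and the feedback and target genes *Spry4*, *Etv5* and *Dusp6* fell, *Etv5* from 89.1 to 0.714 FPKM, *Spry4* from 14 to 0.151 FPKM and *Dusp6* from 19.2 to 4.48 FPKM. No receptor gene fell. *Fgfr1* was at 35.2 and 30.1 FPKM, whereas *Fgfr3* and *Fgfr2* rose, from 0.538 to 33.8 FPKM and from 7.81 to 33.4 FPKM. The list's median log2 ratio was -1.87, and -1.15 under scaling by sum.

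In the BMP, TGF-beta and *Nodal* pathway several ligand and feedback genes fell, and of the receptor genes only *Tgfbr2* did. *Nodal* went from 16.5 to 0.0135 FPKM, *Bmp4* from 5.56 to 0.140 FPKM, and the inhibitory Smad gene *Smad7* from 21.5 to 2.05 FPKM. *Tgfbr1* rose from 9.51 to 53.5 FPKM and *Gdf11*, a ligand that patterns the spinal cord, from 0.895 to 13.8 FPKM. The BMP target genes *Id1* and *Id2* stayed within the 2-fold limits. In all, 14 of 33 fell and 6 rose, and the median of -0.27 was 0.19 under scaling by sum and 0.29 with a minimum of 5 FPKM. *Tgfbr2* went from 1.24 to 0.185 FPKM.

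Of the Wnt pathway genes 7 of 24 rose and 8 fell. The target genes *Sp5* and *Notum* fell, from 8.12 to 0.194 FPKM and from 19.8 to 0.105 FPKM, and *Axin2*, the commonly used target, was at 10.9 and 7.43 FPKM. The receptor gene *Fzd3*, known for axon growth, rose from 3.76 to 42.4 FPKM, and *Fzd5* fell from 10.4 to 0.255 FPKM. *Lef1* and *Wnt8a* were listed at 0 at day 5.

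Most epithelial genes fell, and the genes of this list that rose were cadherins. Of 26 compared, 18 fell and 4 rose, with a median log2 ratio of -3.06. The median day 5 level of the 26 was 0.901 FPKM. Many of those that fell reached the minimum only at day 0, so that their lower values follow from the rule. Without a minimum, 33 genes could be compared, with a median log2 ratio of -2.35. *Cdh1* (E-cadherin) fell from 46.8 to 0.608 FPKM and *Cdh2* (N-cadherin) rose from 4.27 to 40.9 FPKM. The other genes that rose were *Cdh4*, *Cdh6* and *Cdh11*. The tight junction genes *Cldn4*, *Cldn7* and *Ocln* fell, *Cldn7* from 13.7 to 0.311 FPKM, as did the adhesion gene *Epcam*, from 24.1 to 0.436 FPKM, and the epithelial splicing factor gene *Esrp1*, from 17.2 to 0.0760 FPKM. *Tjp1* (ZO-1), which neuroepithelium also uses, was at 23.3 and 19.0 FPKM.

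The fibroblasts on which ESCs were grown could add RNA to the day 0 library. All 15 feeder fibroblast markers compared, of 20 listed, fell. Their median day 5 level was 0.390 FPKM. Most therefore reached the minimum only at day 0, and their lower values follow from the rule. Without a minimum, 17 markers could be compared, with a median log2 ratio of -2.99. The summed level of the list was 194 FPKM in E14 ESCs, 192 FPKM in CJ7 ESCs and 21.2 FPKM at day 5. *Col1a1* went from 27.9 to 0.290 FPKM and *Col1a2* from 27.4 to 0.821 FPKM, and *Dcn* was at 0.374 FPKM at day 0. *Prrx1* and *S100a4* were listed at 0 at day 5. The part of these cells in the falls of *Thy1*, *Lamb1*, *Snai1*, *Inhba* and other genes that fibroblasts express was not tested. Of the neural crest markers, *Sox10* was below 1 FPKM in both libraries and *Erbb3* fell from 3.55 to 0.145 FPKM. Of the 4 glial markers compared, 1 rose and 2 fell, and *Gfap* and *Sox10* were below 1 FPKM in both libraries. *Mbp*, known from myelin and also transcribed as a longer form in neurons, rose from 0.899 to 11.7 FPKM, whereas the astrocyte gene *Aldh1l1* fell from 2.24 to 0.230 FPKM and *Cspg4* (NG2) from 1.48 to 0.00619 FPKM. No blood and endothelial marker passed the rule, with 9 of 12 below 1 FPKM in both libraries. *Pecam1*, also a surface gene of ESCs, was at 12.9 FPKM at day 0 and listed at 0 at day 5. Of the muscle markers, 1 passed the rule, *Myl7*, at 1.76 and 0.603 FPKM.

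Most genes of cell division stayed within the 2-fold limits, as did 7926 of all 12520 genes. Of 30 mitotic genes 28 did so, 2 fell and 0 rose. Of 31 replication genes 6 fell, a share near the 19.7% over all genes, and 0 rose. Both medians were -0.53, and -0.06 and -0.07 under scaling by sum. The proliferation marker gene *Mki67* was at 24.8 and 26.3 FPKM, the topoisomerase gene *Top2a* at 170 and 131 FPKM, and *Pcna* at 204 and 158 FPKM. *Mybl2* (B-MYB), known for high expression in ESCs, fell from 160 to 14.1 FPKM, and cyclin E1 (*Ccne1*) from 52.3 to 16.5 FPKM. The inhibitors and D cyclins went both ways, with 5 of 18 higher and 5 lower. *Cdkn1c* (p57), which acts as neural progenitors leave the cell cycle, rose from 7.43 to 26.1 FPKM, *Cdkn2c* (p18) from 0.221 to 1.79 FPKM, and the D cyclin gene *Ccnd2* from 12.5 to 50.3 FPKM. The inhibitor genes *Cdkn2b* and *Cdkn1a* fell, from 3.29 to 0.208 FPKM and from 43.1 to 17.6 FPKM. *Gadd45b* fell from 5.65 to 0.723 FPKM.

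Most genes of the stress and p53 responses fell. Of 20 immediate early and heat shock genes 15 fell and 0 rose. *Fos* went from 127 to 0.804 FPKM and *Egr1* from 60.2 to 0.734 FPKM, and CJ7 ESCs had 32.8 and 48.1 FPKM. Of 19 p53 target genes 13 fell and 0 rose, among them *Mdm2* from 79.5 to 19.6 FPKM and *Perp* from 8.95 to 0.381 FPKM. *Trp53* itself fell from 134 to 49.5 FPKM. The p53 list had a median log2 ratio of -1.21, which was -0.46 with CJ7 as the ESC library and -0.75 under scaling by sum. The immediate early genes are known to respond to handling of cells, and the part of handling was not tested.

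Ribosome biogenesis genes fell as a group and by similar factors. Of 24, 20 fell, 0 rose and all lay below 0, from -1.60 to -0.62, with a median of -1.19 that was -0.72 under scaling by sum. *Ncl* (nucleolin) went from 105 to 34.6 FPKM, *Npm1* from 937 to 454 FPKM and *Fbl* (fibrillarin) from 76.0 to 49.3 FPKM. The ribosomal protein genes changed less, with 57 of 59 within the 2-fold limits, and their median of -0.49 was 0.077 with CJ7 as the ESC library.

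None of 48 oxidative phosphorylation genes passed 2-fold in either direction, and the median log2 ratio was -0.13, or 0.34 under scaling by sum. Of 25 glycolysis genes 3 rose and 6 fell, shares near those over all genes (17% and 19.7%), and the median of -0.24 was 0.23 under scaling by sum. The glucose transporter gene *Slc2a3* fell from 319 to 17.0 FPKM, the pyruvate dehydrogenase kinase gene *Pdk1* from 72.5 to 9.96 FPKM, the phosphofructokinase gene *Pfkp* from 79.6 to 11.1 FPKM and *Ldhb* from 121 to 36.8 FPKM. The paralogues *Slc2a1*, *Pfkl* and *Ldha* stayed within the 2-fold limits, with *Slc2a1* at 90.4 and 142 FPKM. *Tpi1* rose from 99.6 to 227 FPKM.

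Cholesterol synthesis genes rose in 14 of 22 cases and fell in 0, with a median log2 ratio of 1.17. *Idi1*, the isopentenyl diphosphate isomerase gene, went from 9.17 to 30.9 FPKM, *Sqle* from 22.8 to 52.7 FPKM, *Sc4mol* from 31.7 to 105 FPKM and *Dhcr7* from 22.8 to 61.5 FPKM. The regulator gene *Srebf2* was at 36.1 and 47.2 FPKM. *Hmgcs1* and *Mvd* were listed at 0 in all 8 libraries. *Idi1* was at 21.3 FPKM in CJ7 ESCs.

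**Figure D4:**
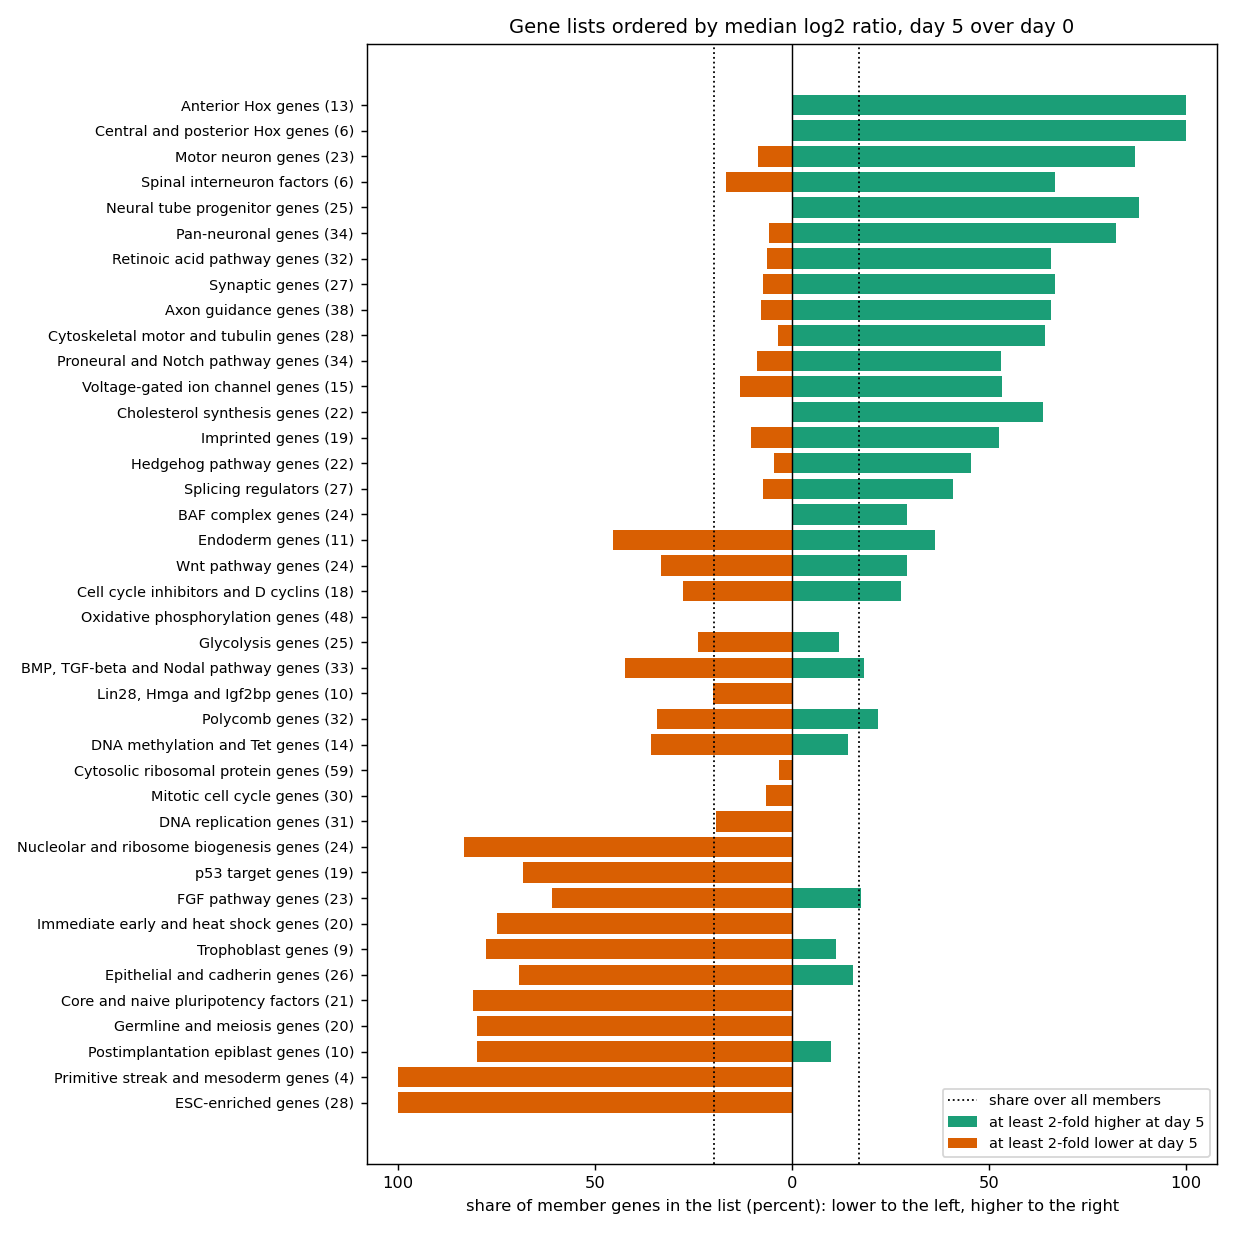
Bars give the percentage of the genes compared in each of 40 lists (number in brackets) that were at least 2-fold higher (right) or lower (left) at day 5 in E14 cells, ordered by median log2 ratio, with dotted lines at the shares over all 12520 genes, 17% higher and 19.7% lower. The ESC-enriched list is at 100% lower, and the oxidative phosphorylation list has no gene on either side.

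Polycomb genes, which the mutants of the series concern, changed subunit by subunit rather than together. Polycomb repressive complex 2 (PRC2) places H3K27 methylation, and PRC1 binds it through CBX proteins. Of 32 genes 7 rose and 11 fell, and the median of -0.32 was 0.14 under scaling by sum and -0.67 with a minimum of 5 FPKM. Of the PRC2 core, *Ezh2* was at 60.8 and 98.2 FPKM. *Suz12* fell from 41.3 to 16.2 FPKM, *Eed* from 32.7 to 11.1 FPKM and *Ezh1* from 15.0 to 4.71 FPKM. The accessory gene *Jarid2* fell from 48.1 to 14.2 FPKM. Of the PRC1 genes, *Cbx7* fell from 61.5 to 18.8 FPKM while *Cbx2* and *Cbx8* rose, *Cbx8* from 0.133 to 2.72 FPKM. *Phc1* fell from 145 to 23.1 FPKM while *Phc2* rose from 9.32 to 54.4 FPKM. *Bmi1* rose from 3.34 to 17.3 FPKM, and its paralogue *Pcgf2* was at 46.3 and 27.3 FPKM. The catalytic subunit gene *Rnf2* was at 21.6 and 22.5 FPKM.

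DNA methylation genes also changed one by one. *Dnmt3b* fell, as given above, and *Dnmt3l* was at 34.3 FPKM at day 0 and listed at 0 at day 5, whereas *Dnmt3a* was at 14.8 and 12.1 FPKM and the maintenance enzyme gene *Dnmt1* at 35.0 and 24.6 FPKM. *Tet1*, a 5-methylcytosine dioxygenase gene of ESCs, fell from 32.9 to 2.84 FPKM while *Tet3* rose from 1.68 to 11.7 FPKM. Of 14 genes 2 rose and 5 fell, and the median of -0.40 was 0.069 under scaling by sum.

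The BAF remodeling complex is known to exchange subunits as progenitors become neurons. Of 24 genes 7 rose and 0 fell. The neuronal subunit genes *Actl6b* and *Dpf3* had 7.67 and 2.97 FPKM at day 5 and were listed at 0 at day 0, and *Ss18l1* (CREST) rose from 2.14 to 5.47 FPKM. Their progenitor counterparts did not pass 2-fold, with *Actl6a* at 68.8 and 53.4 FPKM and *Ss18* at 37.8 and 20.6 FPKM. *Smarcc2* rose from 7.33 to 28.1 FPKM beside *Smarcc1* at 63.4 and 53.9 FPKM.

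**Figure D5:**
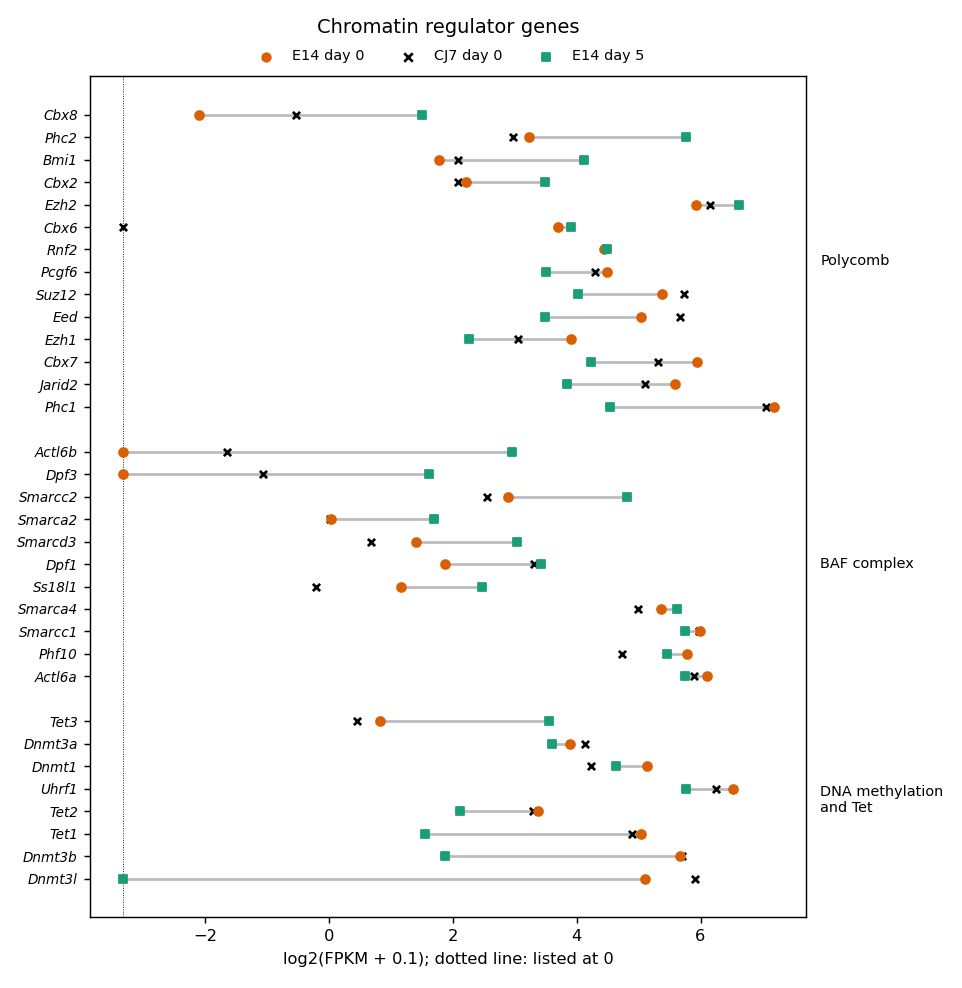
Values of leading Polycomb, BAF complex and DNA methylation genes as log2(FPKM + 0.1) in E14 ESCs (circles), CJ7 ESCs (crosses) and E14 cells at day 5 (squares). Polycomb and DNA methylation genes moved in both directions or stayed, such as *Phc2* from 9.32 to 54.4 FPKM and *Phc1* from 145 to 23.1 FPKM. Of the BAF complex genes compared, 7 rose and 0 fell.

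Among RNA-binding regulators of splicing, several neuronal ones rose. Of 27, 11 rose and 2 fell, and both that fell were the epithelial factor genes *Esrp1* and *Esrp2*. *Srrm4*, the activator of neuronal microexons, went from 0.334 to 16.3 FPKM and *Nova2* from 0.663 to 13.2 FPKM. *Ptbp1*, a repressor of neuronal exons, was at 329 and 174 FPKM, and its neuronal paralogue *Ptbp2* rose from 15.5 to 35.6 FPKM. Of the Lin28, Hmga and Igf2bp genes, known from fetal tissues, 2 of 10 fell, a share near the 19.7% over all genes. These were *Lin28a* from 53.1 to 16.6 FPKM and *Trim71* from 12.2 to 2.54 FPKM, while *Lin28b* was at 12.2 and 17.8 FPKM.

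Of 19 imprinted genes 10 rose and 2 fell, and the median log2 ratio was 0.75 with CJ7 as the ESC library. *Dlk1* went from 3.75 to 41.1 FPKM, *Ndn* from 6.03 to 30.1 FPKM, and *Phlda2* fell from 20.3 to 0.0861 FPKM. The wild-type ESC lines differed here. *Grb10* was at 69.3 FPKM in E14 ESCs, 18.3 FPKM in CJ7 ESCs and 240 FPKM at day 5, and *Mest* at 3.57, 62.8 and 6.74 FPKM.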

How the data were processed

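Total RNA of E14 wild-type ESCs and of E14 cells at day 5 of SMN differentiation was sequenced on Illumina instruments, with 1 library each. Per the submitters' processing notes, the authors aligned reads with TopHat 1.3.2 and Bowtie 0.12.7 and deposited FPKM values per gene from Cufflinks 1.2.1 and Cuffdiff, on an Ensembl-based annotation of NCBI build 37 (mm9). The table holds no counts, so depth in reads is unknown, and the number of reads behind a low value cannot be given.

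Protein-coding genes were taken from GENCODE vM1, which held 36104 of 36808 identifiers, and coordinates are from it. Ratios were log2 of FPKM plus 0.1, which understates the change of low genes. With 1 library per side no test was run, and a change of 2-fold was taken as the limit. The 40 gene lists and 6 marker lists held 1190 genes of the table, 914 of them compared, and 5 listed symbols were not found. Some genes are in several lists, and some list members are not reported here. Listed symbols absent from the table were matched through 11 RefSeq synonyms, and of symbols with several rows the protein-coding row with the highest mean over the 8 libraries was used. The genes and lists were chosen with earlier results of these data known. Genes named were the 15 largest rises and falls, the 10 highest in each library, and in each list its leading genes, the 3 largest changes and any gene listed at 0 or below 1 FPKM; further list members were named after their values were seen. Ratio and count code was tested on simulated data. The alternatives changed the pseudocount (1 or 0.01), the minimum level (5 FPKM, or none), kept genes listed at 0, and used 2 scalings, CJ7 as the ESC library, and all genes of the table. Calculations used Python 3.11.15, NumPy 2.4.6 and pandas 2.3.3.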

Additional observations from a re-analysis of the deposited data

Results flagged for a closer look

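For 2 lists the median log2 ratio over differentiation was at least 1 in size in E14 cells and in a PRC2 mutant line, in opposite directions. The difference was not tested, since each condition had 1 library. Epithelial and cadherin genes had a median of -3.06 over 26 genes in E14 cells and 1.12 over 31 genes in Suz12delta cells. In Eednull cells it was 0.63 over 31 genes. Trophoblast genes had a median of -2.90 over 9 genes in E14 cells and 1.32 over 15 genes in Eednull cells. In Suz12delta cells it was 0.76 over 16 genes. The lines differ in strain background, which cannot be told apart from genotype here, and the genes compared are not the same in each line because the minimum of 1 FPKM was applied to each.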

How the results depend on the processing

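No paired analysis was possible because each condition had 1 library. Without rescaling, the median log2 ratio of all genes compared was -0.10. It was 0.019 with scaling to the 75th percentile, 0.38 with scaling by sum and 0.11 with CJ7 as the ESC library. Genes at least 4-fold higher numbered 909, and 503 with a pseudocount of 1, 598 with a minimum of 5 FPKM and 1370 with scaling by sum. Genes at least 4-fold lower numbered 1233, and 640 with a pseudocount of 1 and 686 with a minimum of 5 FPKM. Genes at least 2-fold lower numbered 1596 with that minimum, where fewer genes were compared, and genes at least 2-fold higher 3434 with scaling by sum.

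Of 40 lists, 25 had a median of at least 1 in size. Over the 9 alternatives these gave 225 values, of which 224 kept their sign and 214 stayed at least 1 in size. The exception in sign was the interneuron list, at -0.16 without a minimum. Relative to the median of all genes, no list changed sign under either scaling. A scaling multiplies a library by 1 factor, which moves most ratios by a similar amount. This outcome was therefore nearly fixed in advance and is no check of the lists. Other medians that changed sign, marker lists included, were the following. With scaling by sum they became 0.19 for BMP, TGF-beta and *Nodal* genes, 0.23 for glycolysis, 0.34 for oxidative phosphorylation, 0.069 for DNA methylation, 0.14 for Polycomb and 0.20 for Lin28, Hmga and Igf2bp genes. With CJ7 they became -0.10 for endoderm, 0.19 for glycolysis, 0.15 for oxidative phosphorylation, 0.077 for ribosomal protein genes and 1.92 for telencephalon and midbrain markers, a list with 2 genes compared. With a minimum of 5 FPKM they became 0.29 for BMP, TGF-beta and *Nodal* genes and 3.56 for glial markers, of which 1 gene was left, and without a minimum -0.41 for endoderm genes. The Wnt median, near 0 at 0.098, was -0.36 with a minimum of 5 FPKM, -0.094 without a minimum and -0.072 with genes listed at 0 kept. The causes of these changes were not tested. The unknown depth limits what can be said of values below 1 FPKM.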

Other observations

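Transcripts that are not annotated as protein-coding were outside the comparison. Among long non-coding, processed and antisense transcripts that reached 5 FPKM, *Miat*, a nuclear RNA known from neurons, was at 0.842 FPKM in E14 ESCs and 35.4 FPKM at day 5, and *Sox2ot*, which spans *Sox2*, at 0.651 and 8.46 FPKM while *Sox2* itself fell. *Hoxb3os*, an antisense transcript in the Hoxb cluster, was at 0.490 and 53.8 FPKM, and reads of it and of *Hoxb3* cannot be told apart without strand. *Gm11019* was at 117 and 0.346 FPKM. CJ7 ESCs had 0.358 FPKM of *Miat* and 45.2 FPKM of *Gm11019*.

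Some genes outside the lists were listed at 0 in 1 E14 library and well above 1 FPKM in the other. *Btbd17* was listed at 0 at day 0 and at 66.9 FPKM at day 5, *Sst*, the neuropeptide somatostatin, at 0 and 25.5 FPKM, and *B2m*, a subunit of MHC class I, at 0 and 11.9 FPKM. *Zscan10*, a zinc finger gene of ESCs, was at 57.6 FPKM at day 0 and listed at 0 at day 5. These values were chosen after they were seen, and a 0 can be a failed estimate.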
